A study of Mus musculus with 2 samples.

Results

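The genes described here are 8 genes of the inner hair cell synapse, Slc17a8, Otof, Cabp2, Cacna1d, Rims2, Tafa3, Dnajc5b and Pvalb. They were found by symbol among 33696 gene rows, and each symbol matched 1 row. Their unique molecular identifiers (UMIs, each standing for 1 captured RNA molecule) were counted per nucleus in 2 libraries of nuclei from the mouse cochlea, a tissue labelled basement membranes. The first library held nuclei of 20 pooled cochleae labelled Serpine2 cOE, genotype Lgr5EGFP-CreER/+,Serpine2loxp/loxp, and the second those of 19 pooled control cochleae, genotype Serpine2loxp/loxp. Both groups carried the floxed Serpine2 alleles, received tamoxifen at P1 and were taken at P7. The CreER is expressed under Lgr5, which marks a subset of supporting cells, and the control mice lacked it, so driver allele, pool and library cannot be told apart. The labels do not say what recombination of the floxed allele produces. Each group was 1 library, so no difference between them has a replicate check, and no p-value is given. Intervals are 95% intervals that cover counting error alone.

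The inner hair cell turns sound into a graded voltage and releases glutamate continuously onto the fibres of the auditory nerve. Its ribbon synapse holds calcium channels of the Cav1.3 type close to vesicles that are primed by scaffold proteins and released with the calcium sensor otoferlin. Outer hair cells amplify vibration and have fewer afferent synapses. At P7 both hair cell types still mature, before the onset of hearing.

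Hair cell nuclei were taken by marker genes that hold none of the 8 genes. A nucleus needed at least 8 of 24 hair cell markers, such as Myo7a and Pou4f3, with 6 or more of every 1000 UMIs from them. A hair cell nucleus was called inner with at least 2 of Fgf8, Tbx2, Shtn1 and Atp2a3 and at least 2 times as many UMIs from them as from Slc26a5, Ocm, Ikzf2 and Strc, and called outer by the reverse rule. Nuclei with fewer than 2 markers of either set are called other hair cell nuclei. This gave 72 inner nuclei in the Serpine2 cOE library and 28 in the control library. Outer nuclei numbered 236 in Serpine2 cOE and 200 in control, and other hair cell nuclei 45 and 27. A further 20 nuclei in Serpine2 cOE and 4 in control had at least 2 markers of a set but lacked the needed excess of UMIs over the other set. They held UMIs of both sets, entered neither class and are called nuclei of both marker sets. The labels name hair cells and supporting cells, but hair cell nuclei made up 3.82% of kept nuclei in Serpine2 cOE and 3.14% in control, and nuclei with supporting cell markers 15.2% and 9.44%.

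Inner nuclei had a median of 6437.5 UMIs in Serpine2 cOE and 7747.5 in control, and outer nuclei 5487 and 6084. Levels are in CPM, the usual scaled count, here the UMIs of a gene summed over a class and divided by all UMIs of that class. All inner nuclei together held 556076 UMIs in Serpine2 cOE and 250803 in control, so a gene with 0 UMIs there could stand at up to 5.39 and 12 CPM. The libraries shared 27 cell barcodes, 16 of them among kept nuclei. Serpine2 itself stood at 39.6 CPM in inner nuclei of Serpine2 cOE and 39.9 CPM in those of control (log2 ratio -0.01, interval -1.15 to 1.23), and at 39.5 and 33.5 CPM in outer nuclei (0.24, -0.31 to 0.80). In nuclei with supporting cell markers it was at 82.8 CPM in Serpine2 cOE and 78.4 CPM in control (0.08, -0.15 to 0.31). Over all nuclei outside hair cells it was lower in Serpine2 cOE, at 92.1 against 99.6 CPM (-0.11, -0.20 to -0.03). Whether a recombined transcript carries the counted 3′ end of Serpine2 is not stated, so these values do not check the label.

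The promoters of the genes are shown because their levels follow different patterns across hair cells. RefSeq windows from 250 bases before to 50 bases after a transcript start, in build GRCm38.p6, were matched for 5 of the 8 genes, with 9 starts. The first listed starts of 3 genes that were much higher in inner than in outer nuclei, and of Cacna1d, which was not, are given 5′ to 3′. Capitals mark each match to CANNTG, the E-box letters bound by basic helix-loop-helix proteins such as Atoh1, the hair cell fate factor. These letters read the same on both strands.
Slc17a8, chr10:89621200-89621499, minus strand: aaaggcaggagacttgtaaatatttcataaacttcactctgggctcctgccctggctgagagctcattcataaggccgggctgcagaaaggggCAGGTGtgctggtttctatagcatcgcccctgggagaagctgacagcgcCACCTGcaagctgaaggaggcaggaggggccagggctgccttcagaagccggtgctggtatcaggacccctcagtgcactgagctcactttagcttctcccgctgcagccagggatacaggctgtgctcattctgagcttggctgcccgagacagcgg
Cabp2, chr19:4082238-4082537, plus strand: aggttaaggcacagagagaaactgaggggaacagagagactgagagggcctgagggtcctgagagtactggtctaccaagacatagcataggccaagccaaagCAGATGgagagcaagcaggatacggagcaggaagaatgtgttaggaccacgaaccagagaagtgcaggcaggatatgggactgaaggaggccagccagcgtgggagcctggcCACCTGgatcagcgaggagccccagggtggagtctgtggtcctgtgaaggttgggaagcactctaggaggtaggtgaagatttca
Tafa3, chr3:104777498-104777797, minus strand: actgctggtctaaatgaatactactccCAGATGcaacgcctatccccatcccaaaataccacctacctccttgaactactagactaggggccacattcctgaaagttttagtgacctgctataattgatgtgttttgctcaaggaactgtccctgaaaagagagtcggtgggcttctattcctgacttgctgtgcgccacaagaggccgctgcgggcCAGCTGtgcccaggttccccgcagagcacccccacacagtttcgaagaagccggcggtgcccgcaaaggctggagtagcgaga
Cacna1d, chr14:30491107-30491406, minus strand: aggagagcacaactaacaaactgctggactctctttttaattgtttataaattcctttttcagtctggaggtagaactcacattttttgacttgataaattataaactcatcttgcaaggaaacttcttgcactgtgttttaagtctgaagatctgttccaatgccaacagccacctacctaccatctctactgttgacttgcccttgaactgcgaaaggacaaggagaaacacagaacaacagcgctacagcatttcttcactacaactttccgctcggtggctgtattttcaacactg
Slc17a8, Cabp2 and Tafa3 each held 2 matches in these windows and Cacna1d held 0, while the second starts of Slc17a8, Cabp2 and Cacna1d held 1, 0 and 1. The Pvalb starts held 0 and 2. CANNTG was found in 72.3% of 32851 mouse promoter windows of the same length, and so in most of them. The letters GGTGTG, searched on both strands as letters bound by T-box proteins, were found once in the first Slc17a8 window, overlapping a CANNTG match, once in the first Pvalb window, and in 19.0% of all windows. The homeodomain letters TAATTA were found once, in the second Slc17a8 window, and in 5.29% of all windows. A match is a run of letters, and no binding was measured.

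Slc17a8 encodes VGLUT3, the transporter that fills inner hair cell vesicles with glutamate (ENSMUSG00000019935, chromosome 10, 89409882 to 89457326, minus strand in GRCm39). In Serpine2 cOE it stood at 442 CPM in inner nuclei (246 UMIs, interval 389 to 501) and 21.6 CPM in outer nuclei (35 UMIs, 15.1 to 30.1). In control the inner level was 283 CPM (71 UMIs, 221 to 357) and the outer level 23.8 CPM (37 UMIs, 16.8 to 32.9). The log2 ratio of inner over outer was 4.35 (3.84 to 4.91) in Serpine2 cOE and 3.57 (2.98 to 4.18) in control. A nucleus with Slc17a8 was common among inner nuclei, 62 of 72 in Serpine2 cOE and 20 of 28 in control, and uncommon among outer nuclei, 29 of 236 and 29 of 200. Other hair cell nuclei resembled outer ones, with 28.4 CPM from 7 UMIs in Serpine2 cOE and 17.3 CPM from 3 UMIs in control, and their ratio over outer nuclei had an interval that included 0 in both libraries. Nuclei outside hair cells stood at 9.90 CPM in Serpine2 cOE and 11.2 CPM in control, below the outer hair cell level in both.

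Otof encodes otoferlin, the calcium sensor of vesicle fusion and replenishment in hair cells (ENSMUSG00000062372, chromosome 5, 30524406 to 30619324, minus strand). It was present in every inner nucleus, with a lowest value of 4, a median of 15 and a highest of 47 UMIs in Serpine2 cOE, against 2, 14 and 25 in control. Outer nuclei were lower but mostly not empty, with a median of 3 UMIs and 209 of 236 nuclei in Serpine2 cOE, and a median of 4 and 187 of 200 nuclei in control. The summed level was 2014 CPM in inner nuclei (1898 to 2136) and 528 CPM in outer nuclei (493 to 564) in Serpine2 cOE. In control it was 1575 CPM in inner nuclei (1423 to 1738) and 639 CPM in outer nuclei (599 to 680). The ranges of single nuclei overlapped between the classes, while the summed levels gave log2 ratios of inner over outer of 1.93 (1.80 to 2.06) and 1.30 (1.13 to 1.47). Otof marked hair cells of both types: outer nuclei held 40.2 times the level of nuclei outside hair cells in Serpine2 cOE (35.4 to 45.9) and 45.8 times in control (40.0 to 52.5).

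Cabp2 encodes a calcium-binding protein that keeps Cav1.3 channels from inactivating (ENSMUSG00000024857, chromosome 19, 4131578 to 4137340, plus strand). Inner nuclei held 93 UMIs in Serpine2 cOE, 167 CPM (135 to 205), and outer nuclei 16 UMIs, 9.88 CPM (5.65 to 16.0). Control inner nuclei held 33 UMIs, 132 CPM (90.6 to 185), and outer nuclei 13 UMIs, 8.38 CPM (4.46 to 14.3). The log2 ratio of inner over outer was 4.08 (3.31 to 4.95) in Serpine2 cOE and 3.97 (3.01 to 5.02) in control. Of the 13 UMIs in control outer nuclei, 38.5% came from 1 nucleus.

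Cacna1d encodes the pore-forming subunit of Cav1.3, the channel that triggers release at the inner hair cell ribbon (ENSMUSG00000015968, chromosome 14, 29761896 to 30213412, minus strand). Its inner and outer levels were close: inner nuclei stood at 3990 CPM (3826 to 4160) and outer nuclei at 4282 CPM (4182 to 4384) in Serpine2 cOE. Control nuclei stood at 3301 CPM when inner (3080 to 3534) and at 4329 CPM when outer (4226 to 4434). Every hair cell nucleus of both libraries held it, with medians of 29.5 UMIs in inner and 26 in outer nuclei of Serpine2 cOE, and 30 and 28.5 in control. The log2 ratio of inner over outer was -0.10 (-0.17 to -0.03) in Serpine2 cOE and -0.39 (-0.50 to -0.29) in control, but with classes from Leiden clusters in place of the marker gate it was 0.38 (0.31 to 0.46) and -0.04 (-0.19 to 0.10). The direction within hair cells changed with how nuclei were classed. Against nuclei outside hair cells, which stood at 209 CPM in Serpine2 cOE and 222 CPM in control, inner nuclei were higher by log2 4.26 (4.18 to 4.33) and 3.89 (3.78 to 4.0). Cacna1d overlaps counted genes on the opposite strand, Chdh, Dcp1a and Gm50467. The largest of these, Gm50467, held 130 UMIs in inner nuclei of Serpine2 cOE against 2219 of Cacna1d, and 65 against 828 in control.

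Rims2 encodes RIM2, a scaffold protein that tethers calcium channels at the release site (ENSMUSG00000037386, chromosome 15, 39060328 to 39549500, plus strand). Inner nuclei held a median of 33.5 UMIs in Serpine2 cOE, with a lowest of 5 and a highest of 95, and a median of 41 in control, with a lowest of 0 and a highest of 76. Outer nuclei had a median of 0 in both libraries. The levels were 4379 CPM in inner nuclei (4207 to 4556) and 316 CPM in outer nuclei (289 to 344) in Serpine2 cOE. Control nuclei stood at 4135 CPM when inner (3887 to 4394) and at 284 CPM when outer (258 to 311). Inner over outer gave log2 3.79 (3.66 to 3.93) in Serpine2 cOE and 3.87 (3.70 to 4.03) in control, and these intervals overlap. In control, 2 of the 28 inner nuclei held none, and in these nuclei Otof and Cacna1d were the only ones of the 8 genes found.

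Outer nuclei differed among themselves in Rims2. Of these nuclei, 14 of 236 in Serpine2 cOE and 10 of 200 in control had 10 or more UMIs, and they carried 59.9% and 58.9% of all outer Rims2 UMIs. Tafa3 and Cabp2 were at 0 CPM in the 14 nuclei of Serpine2 cOE, against 2.20 and 11.8 CPM in its other outer nuclei, while in control Tafa3 stood at 17.9 against 1.39 CPM and Cabp2 at 44.8 against 5.55 CPM. All 2 Tafa3 and 5 Cabp2 UMIs of the control set came from 1 nucleus of 40127 UMIs, and without it both genes were at 0 CPM there. The 4 inner markers of the gate were at 85.3 against 110 CPM in Serpine2 cOE and 170 against 114 CPM in control, and at 55.9 and 84.0 CPM without the deepest nucleus of each set, a step added after the data were seen. The 4 outer markers were lower, at 671 CPM against 1672 CPM in the other outer nuclei of Serpine2 cOE and 654 against 1439 CPM in control. Neuron markers, 11 genes with Syt1 and Snap25 among them, were higher in these nuclei. They stood at 1066 against 673 CPM in Serpine2 cOE and 1174 against 731 CPM in control, and their part in the Rims2 level was not tested. Over all outer nuclei, Syt1 and Snap25 held 444 and 451 of the 1191 neuron marker UMIs in Serpine2 cOE. In control they held 516 and 387 of 1184, and both are also on the list of vesicle fusion genes. Astn2, an adhesion protein gene, stood at 640 against 99.2 CPM in Serpine2 cOE and 556 against 81.9 CPM in control, and Tmc2, a mechanotransduction channel gene of immature hair cells, at 186 against 53.6 CPM and 260 against 47.2 CPM. The nuclei were chosen by Rims2, and these comparisons are descriptions.

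Other hair cell nuclei are those left over by the marker cut. They numbered 7 in Serpine2 cOE and 4 in control with a looser gate that needed fewer markers, and 111 and 66 with a stricter one. Leiden clusters classed 65 of them, over both libraries, as outer, 7 as other hair and 0 as inner. Summed Rims2 in other hair cell nuclei lay between the named classes, and few nuclei carried most of it. Those with 10 or more UMIs, 8 of 45 in Serpine2 cOE and 5 of 27 in control, held 58.3% and 69.9% of its UMIs, 1 control nucleus held 24.8%, and the median was 2 UMIs in both. Other hair cell nuclei held 856 CPM in Serpine2 cOE (745 to 980) and 881 CPM in control (747 to 1032), above outer nuclei by log2 1.44 (1.2 to 1.67) and 1.64 (1.36 to 1.90) and below inner nuclei by a wider margin, since inner over other hair was 2.35 (2.15 to 2.56) and 2.23 (1.99 to 2.49). Among the 6 of the 8 genes with at least 10 UMIs in other hair cell and outer nuclei, Rims2 was the only one 2-fold or more higher in other hair cell nuclei, against 7.78% of all genes in Serpine2 cOE and 8.69% in control. Against other hair cell nuclei, inner nuclei had intervals above 0 for 7 of 8 genes in Serpine2 cOE, with 6.38% of all genes above, and for 5 of 7 in control, with 6.33% above. None of the 8 was below, against 7.46% and 6.74% of all genes. Cacna1d was at 0.16 (0.05 to 0.27) in Serpine2 cOE and -0.02 (-0.18 to 0.13) in control. The call in Serpine2 cOE was lost under 8 alternatives, among them a minimum of 1000 genes (0.03, -0.08 to 0.15) and no doublet removal (-0.0199, -0.13 to 0.09), and with diluted hair cell nuclei, those with 8 markers but under 0.6% marker UMIs, kept, the interval lay below 0 (-0.22, -0.33 to -0.11). Astn2 in other hair cell nuclei was at 390 CPM in Serpine2 cOE and 524 CPM in control, against 185 and 116 CPM in outer nuclei.

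**Figure D1:**
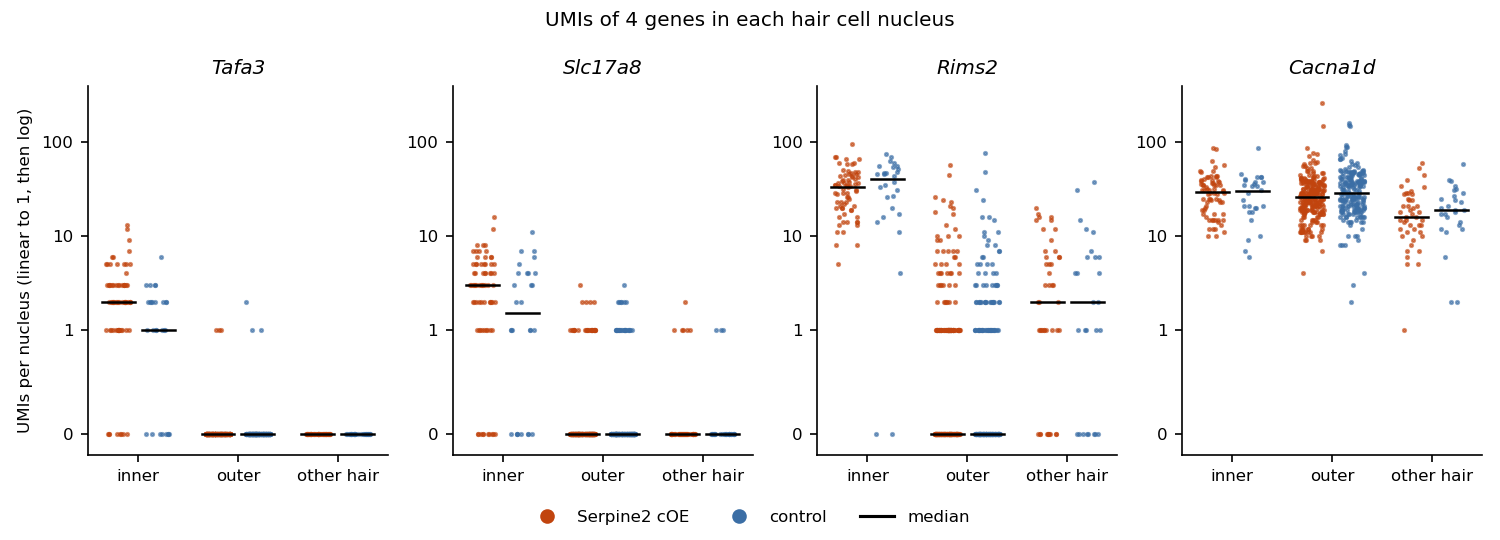
UMIs of Tafa3, Slc17a8, Rims2 and Cacna1d in each inner, outer and other hair cell nucleus (1 point a nucleus, Serpine2 cOE left of control, black line the median; the axis is linear to 1 and logarithmic above). Medians of Slc17a8 are 3 and 1.5 UMIs, of Tafa3 2 and 1 and of Rims2 33.5 and 41 in inner nuclei, against 0 in outer nuclei, while Cacna1d has medians of 29.5 and 30 UMIs in inner and 26 and 28.5 in outer nuclei. Single nuclei overlap: 10 and 8 inner nuclei are at 0 for Slc17a8 and 8 and 8 for Tafa3, and 29 and 29 outer nuclei hold Slc17a8.

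Tafa3 encodes a small secreted protein of the TAFA family (ENSMUSG00000055865, chromosome 3, 104674711 to 104689156, minus strand). Inner nuclei held 192 UMIs in Serpine2 cOE, 345 CPM (298 to 398), and 41 UMIs in control, 163 CPM (117 to 222). Outer nuclei held 3 UMIs in Serpine2 cOE and 4 in control, and other hair cell nuclei 0 in both. The ratio of inner over outer was 186-fold with an interval of 62.8 to 911 in Serpine2 cOE and 63.4-fold with an interval of 23.0 to 244 in control. Against other hair cell nuclei set at the floor of 3 counts, inner nuclei were 28.4-fold higher in Serpine2 cOE and 9.47-fold higher in control. The lower limits of the counting interval were 22.8-fold in Serpine2 cOE and 7.36-fold in control. Inner nuclei made up 0.736% of kept nuclei in Serpine2 cOE and 0.339% in control, yet held 72.7% and 48.2% of all Tafa3 UMIs there. An overlapping gene on the opposite strand, Ppm1j, held 12 UMIs in inner nuclei of Serpine2 cOE and 10 in those of control.

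Dnajc5b encodes a relative of cysteine string protein, a chaperone of synaptic vesicles (ENSMUSG00000027606, chromosome 3, 19561429 to 19665026, plus strand). It was sparse: inner nuclei held 46 UMIs in Serpine2 cOE and 3 in control, and outer nuclei 2 and 0. In Serpine2 cOE the ratio of inner over outer was 67.0-fold with an interval of 17.5 to 569. The 3 and 0 UMIs of control are both at or under the floor of 3 counts, so no fold is given there. In Serpine2 cOE 24 of 72 inner nuclei held the gene, and 21 of these also held Tafa3, which 64 of all 72 held. In control it was found in 3 of 28, and all 3 held Tafa3, which 20 of all 28 held. The opposite-strand gene 1700064H15Rik, which overlaps Dnajc5b, held 15 UMIs in inner nuclei of Serpine2 cOE and 5 in those of control, and 0 and 1 in outer nuclei.

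Pvalb encodes parvalbumin, a calcium buffer of hair cells and neurons (ENSMUSG00000005716, chromosome 15, 78075314 to 78091149, minus strand). Inner nuclei stood at 75.5 CPM (54.4 to 102) and outer nuclei at 54.4 CPM (43.6 to 67.0) in Serpine2 cOE. Control nuclei stood at 55.8 CPM when inner (30.5 to 93.7) and at 31.6 CPM when outer (23.4 to 41.7). The log2 ratio of inner over outer was 0.47 (-0.09 to 1.02) and 0.82 (-0.15 to 1.70), so both intervals included 0. This call changed with the processing. In Serpine2 cOE the interval lay above 0 with a minimum of 200 or of 1000 genes, without doublet removal and with Leiden clusters (0.62 to 1.10), and in control with a minimum of 200 genes, with Slc17a8 and Otof in the gate and with diluted hair cell nuclei kept (0.98 to 1.27). Macrophage-like nuclei, which should lack the gene, held it in 15.6% of nuclei in Serpine2 cOE and 4.27% in control, at median depths of 1621 and 1576 UMIs. After each nucleus was thinned to 1000 UMIs, 10.6% of macrophage-like and 5.93% of outer nuclei had Pvalb in Serpine2 cOE, with 2.86% and 2.0% in control. Inner nuclei then had 5.56% in Serpine2 cOE and 7.14% in control. The thinned shares in outer nuclei of both libraries, and in inner nuclei of Serpine2 cOE, were at or below those of macrophage-like nuclei. They rest on few nuclei with Pvalb, 14 of 236 outer and 9 of 85 macrophage-like in Serpine2 cOE, and their intervals overlap. Control had 4 of 200 outer and 3 of 105 macrophage-like nuclei with it, again with overlapping intervals. Summed, outer nuclei exceeded those outside hair cells by log2 0.48 (0.15 to 0.79) in Serpine2 cOE and 1.02 (0.55 to 1.46) in control. For inner nuclei the values were 0.95 (0.47 to 1.4) and 1.84 (0.95 to 2.61). How much of Pvalb in hair cell nuclei is background was not tested.

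**Figure D2:**
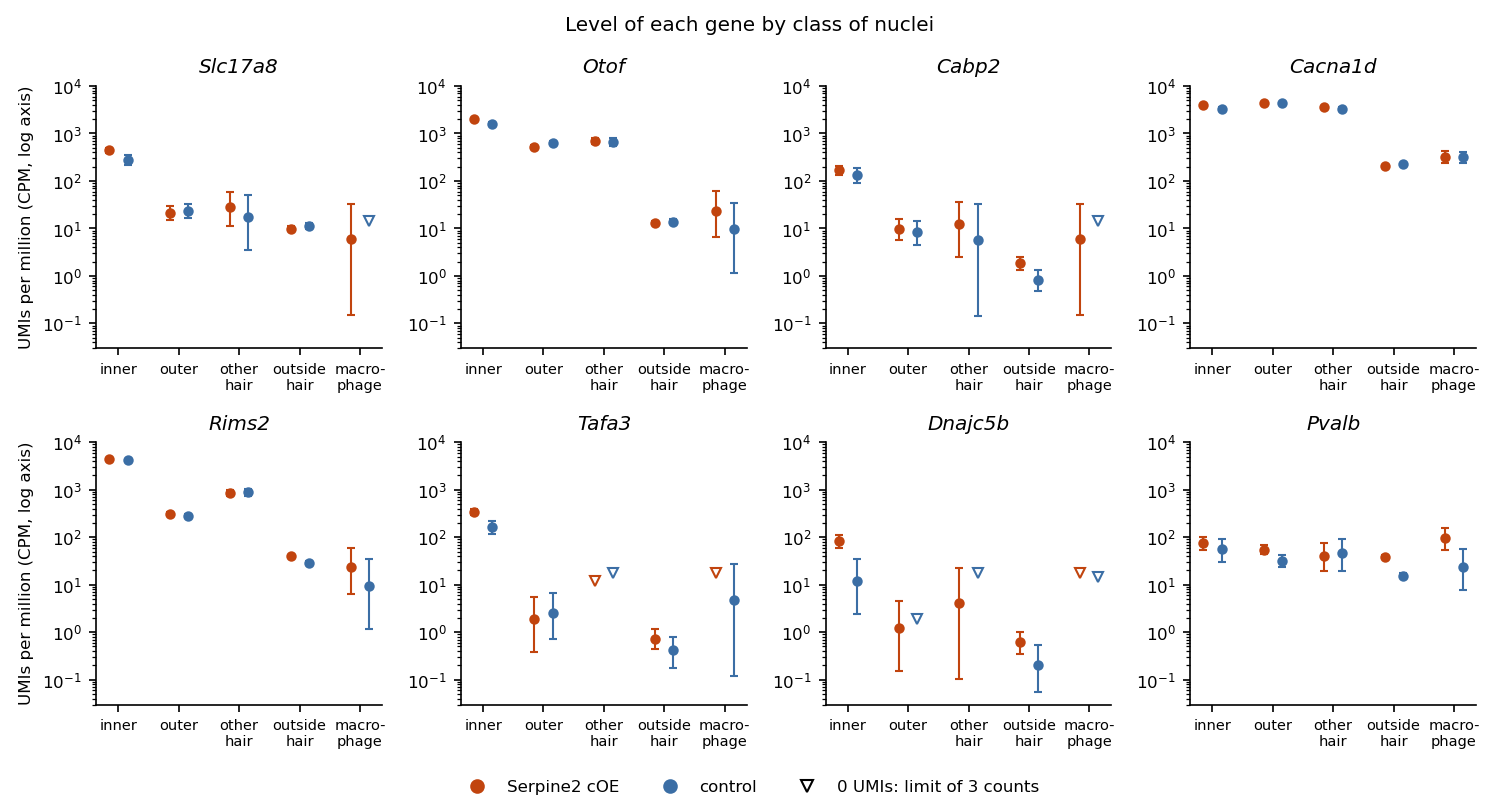
Level of each of the 8 genes in inner, outer, other hair cell, outside hair cell and macrophage-like nuclei, in CPM on a log axis, with Serpine2 cOE left of control and bars for the 95% counting interval; open triangles mark the limit of 3 counts where 0 UMIs were found. Slc17a8, Cabp2, Rims2 and Tafa3 are highest in inner nuclei, as is Dnajc5b in Serpine2 cOE, while its 12 CPM in control inner nuclei lies under the limits of 17.3 and 14.4 CPM at 0 UMIs in other hair cell and macrophage-like nuclei, Otof is at 2014 and 1575 CPM in inner against 528 and 639 CPM in outer nuclei, Cacna1d is between 3301 and 4329 CPM in both hair cell types, and Pvalb is at 75.5 and 55.8 CPM in inner and 94.9 and 24.0 CPM in macrophage-like nuclei.

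As a set, 6 of the 8 genes were 2-fold or more higher in inner than in outer nuclei in Serpine2 cOE, against 6.57% of 13297 genes with at least 10 UMIs over both classes. In control it was 5 of 7, against 8.28% of 12854 genes, with Dnajc5b under the minimum. By the counting interval the same counts lay above 0, 6 of 8 against 8.25% of all genes and 5 of 7 against 7.03%. Cacna1d was the gene with an interval below 0 in both libraries, as 9.95% and 6.7% of all genes were. The 8 were chosen as inner hair cell genes with earlier results of these data known, so these counts describe the choice as well as the cells.

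Genes with at least 10 UMIs in inner nuclei of each library were ordered by the smaller of the 2 lower bounds of log2 inner over outer. Among 5251 such genes outside the gate markers, Tafa3 was 3rd, Rims2 4th, Cabp2 7th and Slc17a8 8th. The genes most like them were Nalf1, a subunit of the sodium leak channel, in the 1st place at log2 5.84 in Serpine2 cOE and 5.71 in control, and 6530403H02Rik at 5.03 and 4.99. They were followed by Chrm3, a muscarinic acetylcholine receptor, at 4.91 and 3.85, and Adarb2, an RNA-editing family member, at 3.42 and 3.83. Dlgap2, a postsynaptic scaffold gene, at 3.80 and 4.78, and Brip1, a DNA repair helicase, at 5.47 and 3.74, closed the first 10. Otof ranked 81, Pvalb 562 and Cacna1d 1376, and Dnajc5b was not ranked. The ranks of the 8 genes are descriptions, since the genes were chosen with earlier results of these data known.

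The genes were found together in single inner nuclei. The median inner nucleus held 6 of the 8 genes in Serpine2 cOE and 6 in control, and the median outer nucleus 3 and 3. At least 4 genes were found in 98.6% of inner nuclei in Serpine2 cOE and 92.9% in control, against 23.7% and 21.5% of outer nuclei. Slc17a8, Cabp2, Rims2 and Tafa3 were all present in 39 of 72 inner nuclei of Serpine2 cOE and 11 of 28 of control, but in 0 of 236 outer nuclei of Serpine2 cOE and 1 of 200 of control. Singly, these genes were found in 86.1%, 73.6%, 100% and 88.9% of inner nuclei in Serpine2 cOE. In control the shares were 71.4%, 57.1%, 92.9% and 71.4%. Whether the genes occur together more often than these shares give was not tested. Inner nuclei were somewhat deeper than outer ones. After thinning to 1000 UMIs the median was 4 genes in inner nuclei of Serpine2 cOE and 3 in those of control, and 2 in outer nuclei of both.

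**Figure D3:**
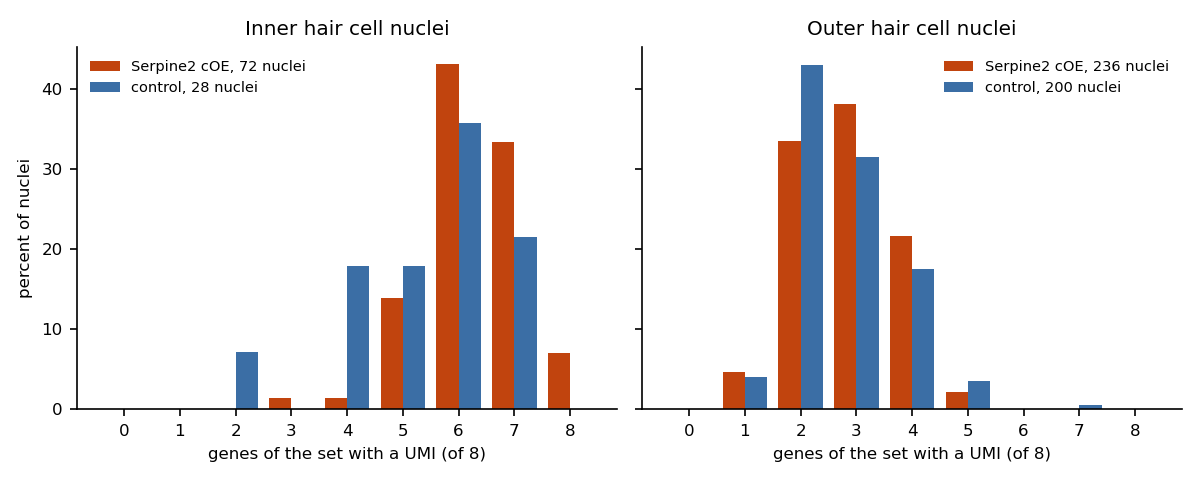
Share of nuclei, in percent, by how many of the 8 genes had a UMI, for inner (left) and outer (right) hair cell nuclei, with Serpine2 cOE bars left of control bars. Inner nuclei peak at 6 genes in both libraries and outer nuclei at 2 or 3.

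Among active zone scaffold and priming genes, 15 had at least 10 UMIs in Serpine2 cOE. For inner over outer, 1 of them had an interval above 0 and 2 below, against 8.25% and 9.95% of all genes. Of 14 in control, 1 was above and 2 below, against 7.03% and 6.7%. The medians were log2 0.05 and -0.02, against -0.06 and -0.08 over all genes. Erc2, an ELKS scaffold gene, was lower in inner nuclei in both libraries, at 460 against 692 CPM in Serpine2 cOE and 427 against 672 CPM in control (log2 -0.59, -0.79 to -0.39, and -0.66, -0.96 to -0.37). Ppfia4, a liprin gene, was at log2 0.98 (0.47 to 1.48) and 0.29 (-0.50 to 1.01), Ppfia1 at -0.02 (-0.46 to 0.41) and -0.92 (-1.79 to -0.16), and Unc13c, a priming factor gene, at 0.54 (-0.34 to 1.37) and 0.18 (-1.03 to 1.23). The others counted were Ppfia2, below in Serpine2 cOE, and Unc13b, above in control.

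Among the calcium channel subunits, 2 of 12 genes were above 0 and 3 below in Serpine2 cOE, against 8.25% and 9.95% of all genes. In control 3 of 10 were above and 1 below, against 7.03% and 6.7%. Medians were -0.19 in Serpine2 cOE and 0.22 in control. The subunits higher in inner nuclei of both libraries were auxiliary ones. Cacna2d2, an auxiliary alpha2delta subunit, stood at 124 against 36.4 CPM in Serpine2 cOE and 116 against 16.8 CPM in control (log2 1.77, 1.24 to 2.29, and 2.79, 1.97 to 3.61). Cacnb2, the beta subunit that carries Cav1.3 to the membrane of inner hair cells, stood at 1759 against 931 CPM and 1499 against 935 CPM (0.92, 0.80 to 1.03, and 0.68, 0.51 to 0.85). Cacnb4 was at log2 -2.60 (-4.92 to -0.98) in Serpine2 cOE and -0.42 (-2.37 to 1.08) in control, from 3 and 4 inner UMIs. Cacna1e was at -0.25 (-1.26 to 0.67) and -2.37 (-5.45 to -0.46), from 13 and 2 inner UMIs. The others counted were Cacna1c and Cacna2d3, below in Serpine2 cOE, and Cacna2d1, above in control. Cacna1c in control was at 0.11 (-0.39 to 0.57). Without the control inner nucleus that held most of its UMIs, a step added after the data were seen, it was at -0.90 (-1.63 to -0.24). Cacna2d1 in control stayed above 0 by the same step (0.62, 0.20 to 1.01).

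Of the calcium sensors and buffers, 5 of 9 were above 0 and 1 below in Serpine2 cOE, against 8.25% and 9.95% of all genes. In control 1 of 7 was above and 1 below, against 7.03% and 6.7%. Medians were 0.50 in Serpine2 cOE and 0.02 in control. Calb1, the calbindin gene, was lower in inner nuclei, at 482 against 765 CPM in Serpine2 cOE and 526 against 724 CPM in control (log2 -0.67, -0.86 to -0.47, and -0.46, -0.73 to -0.20). Cabp1, the nearest relative of Cabp2 on the list, was at log2 2.66 (1.16 to 4.34) from 13 and 6 UMIs in Serpine2 cOE and 2.04 (-0.22 to 4.12) from 4 and 6 UMIs in control. Calb2, calretinin, was at 0.52 (0.13 to 0.91) and 0.32 (-0.41 to 0.99). Calm2 and Necab2 were also above 0 in Serpine2 cOE.

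Vesicle fusion and recycling genes had 3 of 24 above 0 and 3 below in Serpine2 cOE, against 8.25% and 9.95% of all genes. In control 2 of 24 were above and 2 below, against 7.03% and 6.7%. Medians were 0.05 in Serpine2 cOE and 0.02 in control. The dynamins, which cut vesicles from the membrane, split: Dnm1 was higher in inner nuclei, at 155 against 49.4 CPM in Serpine2 cOE and 175 against 57.4 CPM in control (log2 1.65, 1.19 to 2.10, and 1.61, 1.06 to 2.15). Dnm3 was lower, at 568 against 2243 CPM and 506 against 2391 CPM (-1.98, -2.15 to -1.81, and -2.24, -2.51 to -1.98). Syt2, a fast calcium sensor of neuronal release, was higher in inner nuclei, at 53.9 against 6.79 CPM and 71.8 against 5.16 CPM (2.99, 1.95 to 4.13, and 3.80, 2.53 to 5.21). The others counted were Syt1, above, and Stx3 and Nsf, below, in Serpine2 cOE, and Syt7, below in control.

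Of the paralogs of the 8 genes, 13 had at least 10 UMIs in Serpine2 cOE and 13 in control, not all of them the same. In Serpine2 cOE 1 was above 0 and 3 below, against 8.25% and 9.95% of all genes. In control 2 were above and 0 below, against 7.03% and 6.7%. Medians were -0.52 in Serpine2 cOE and 0.42 in control. Myof and Tafa1 were below in Serpine2 cOE and above in control, where 1 nucleus held 38.5% and 52% of their inner UMIs. Without the inner nucleus that held most, a step added after the data were seen, the control values were log2 0.90 (-0.44 to 2.07) for Myof and -0.37 (-1.05 to 0.24) for Tafa1, both with 0 inside. Tafa2 was below in Serpine2 cOE, and in control it did not reach 10 UMIs. Named by the same rule beside Cabp1, the otoferlin relative Fer1l6 was at log2 -1.18 (-2.90 to 0.19) in Serpine2 cOE and -0.43 (-2.80 to 1.28) in control, Fer1l5 at -1.16 (-4.35 to 0.98) and 0.46 (-2.79 to 2.73), and Tafa5 at 0.32 (-0.44 to 1.03) and 0.42 (-0.57 to 1.30).

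The share of inner nuclei differed between the libraries. They were 0.736% of kept nuclei in the Serpine2 cOE library (interval 0.577% to 0.927%), against 0.339% of those of the control library (0.226% to 0.490%). The ratio of these shares was 2.17 (1.38 to 3.49), while for outer nuclei it was 0.996 (0.821 to 1.21). In sums over all hair cell nuclei, which hold that difference in share, 7 of the 8 genes had a Serpine2 cOE over control interval above 0, against 7.86% of genes, and the exception was Cacna1d. A class is cut by marker levels, so nuclei near the cut can move between classes. Inner nuclei numbered 109 in Serpine2 cOE and 55 in control with Slc17a8 and Otof added to the gate, and 55 and 14 by Leiden clusters. Doublet removal took 94 hair cell nuclei from Serpine2 cOE and 32 from control, and without it inner nuclei numbered 96 and 30.

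Within inner nuclei, 5 of the 8 genes had an interval of Serpine2 cOE over control above 0, against 5.07% of 9884 genes, and 0 below, against 5.35%. Of the 5, 2 were 2-fold or more higher, against 9.24%. The count of 5 was 2 when the diluted hair cell nuclei were kept, and 3 after thinning to 1000 UMIs. Dnajc5b was at 82.7 CPM in Serpine2 cOE (60.6 to 110) and 12 CPM in control (2.47 to 35.0), a 6.92-fold ratio with an interval of 2.22 to 34.8 that rests on 3 control UMIs. Tafa3 was at 345 and 163 CPM, a log2 ratio of 1.08 (0.59 to 1.60). Slc17a8 was at 442 and 283 CPM (0.64, 0.26 to 1.05), Otof at 2014 and 1575 CPM (0.35, 0.19 to 0.52) and Cacna1d at 3990 and 3301 CPM (0.27, 0.16 to 0.39). For Cabp2 (0.35, -0.24 to 0.97), Rims2 (0.08, -0.02 to 0.19) and Pvalb (0.44, -0.47 to 1.42) the interval included 0. The median over all genes was 0.04.

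The hair cell markers of the gate moved in the same direction in these nuclei. They summed to 16025 CPM in inner nuclei of Serpine2 cOE and 13198 CPM in those of control (log2 0.28, 0.22 to 0.34), the 5 listed inner markers to 1538 and 1224 CPM (0.33, 0.14 to 0.52), and the 13 listed outer markers to 834 and 642 CPM (0.38, 0.12 to 0.65). Scaled to the hair cell markers in place of all UMIs, an alternative added after the data were seen, Tafa3 was at 0.80 (0.31 to 1.32) and Dnajc5b at 2.51 (0.87 to 4.84). On that scale Slc17a8 was at 0.36 (-0.02 to 0.77), Otof at 0.07 (-0.09 to 0.24) and Cacna1d at -0.01 (-0.12 to 0.11), all with 0 inside, and Rims2 was at -0.20 (-0.30 to -0.09). Of the 8 genes only Tafa3 kept an interval above 0 under every alternative in which one was computed. That of Dnajc5b included 0 after thinning (1.81, -1.04 to 7.26).

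Glia markers were lower in inner nuclei of Serpine2 cOE, at 103 against 163 CPM in control (log2 -0.67, -1.28 to -0.06), and neuron, supporting cell and macrophage markers had intervals that included 0. Their part in the result was not tested. In inner nuclei, Syt1 and Snap25 held 229 and 151 of the 478 neuron marker UMIs in Serpine2 cOE, and 90 and 49 of 182 in control. On the lists of other synapse genes, those with intervals above 0 included Ppfia1, Cacnb2, Calb2, Calm2, Snap25 and Amph, and those below were Cacna1c, Cacna2d1, Myof and Tafa1. Cacna1c stood at 52.2 CPM in Serpine2 cOE and 175 CPM in control, where 1 nucleus held 54.5% of its UMIs, and it was also at 162 CPM outside hair cells in both libraries. In control inner nuclei 1 nucleus held 33.3% of the Cacna2d1 UMIs, 38.5% of those of Myof and 52% of those of Tafa1. Outside hair cells Cacna2d1 stood at 446 CPM in Serpine2 cOE and 445 CPM in control, and the levels were 38.7 and 47.0 CPM for Myof and 300.5 and 366 CPM for Tafa1. Without the inner nucleus of each library that held most of a gene, the log2 ratio of Cacna1c was -0.90 (-1.81 to 0.02), with 0 inside. That of Cacna2d1 was then -1.30 (-1.84 to -0.77), of Myof -3.23 (-6.50 to -0.90), from 2 and 8 UMIs, and of Tafa1 -1.47 (-2.40 to -0.55).

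**Figure D4:**
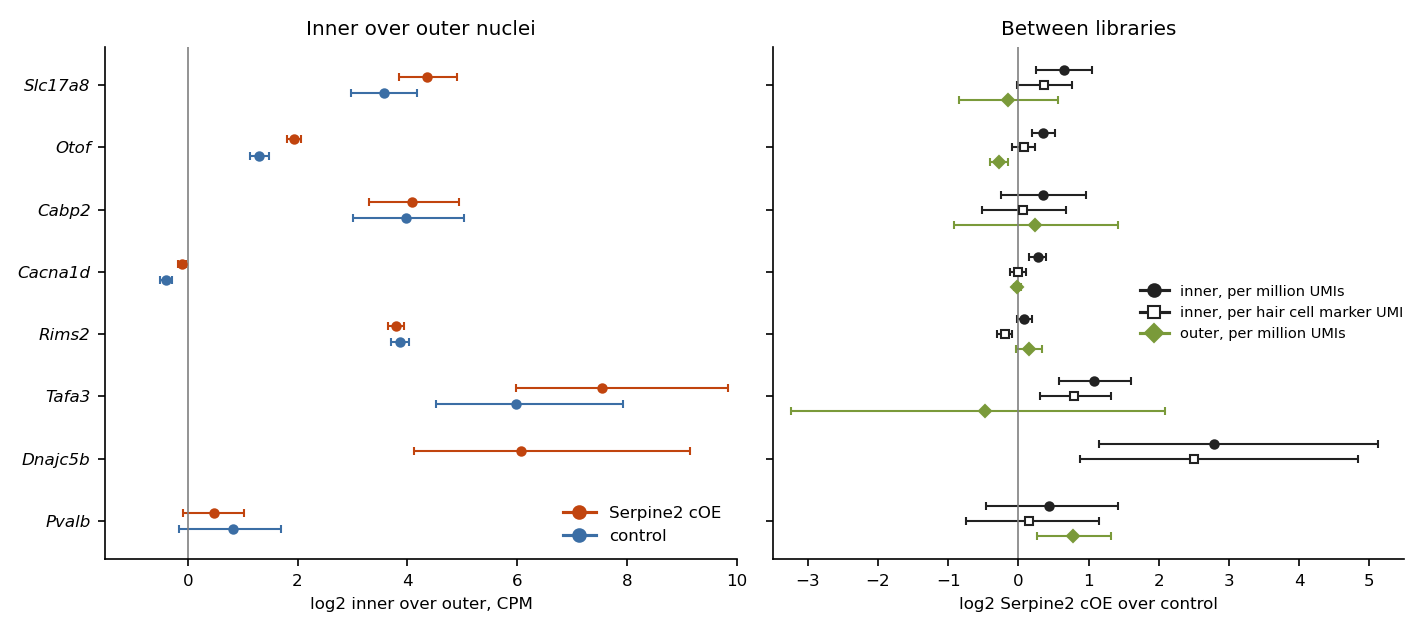
Left, log2 ratio of inner over outer nuclei for each gene in Serpine2 cOE (upper point) and control (lower point); right, log2 ratio of Serpine2 cOE over control in inner nuclei from CPM (circles), in inner nuclei per hair cell marker UMI (open squares) and in outer nuclei from CPM (diamonds), all with 95% counting intervals. Slc17a8, Cabp2, Rims2 and Tafa3 lie far above 0 on the left in both libraries and Cacna1d near 0, at -0.10 and -0.39; on the right Tafa3 and Dnajc5b stay above 0 in inner nuclei on both scales, while Otof falls to 0.07 per hair cell marker UMI; ratios against 0 UMIs are not drawn.

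Within outer nuclei few of the 8 genes differed between libraries. Of 6 with at least 10 UMIs, Pvalb was above 0, at 54.4 CPM in Serpine2 cOE and 31.6 CPM in control (log2 0.78, 0.26 to 1.32), against 6.89% of genes, and Otof was below 0, at 528 and 639 CPM (-0.28, -0.41 to -0.14), against 6.84%. The interval of Pvalb included 0 after thinning (1.57, -0.10 to 3.63). That of Otof included 0 with diluted hair cell nuclei kept (-0.00233, -0.12 to 0.12) and after thinning (-0.30, -0.66 to 0.05). Slc17a8 was at -0.14 (-0.85 to 0.57), Cabp2 at 0.24 (-0.91 to 1.42), Cacna1d at -0.02 (-0.06 to 0.03) and Rims2 at 0.15 (-0.03 to 0.34). Pvalb was higher in Serpine2 cOE outside hair cells as well, at 39 against 15.6 CPM (1.32, 1.14 to 1.51), and in macrophage-like nuclei, at 94.9 against 24.0 CPM (1.98, 0.47 to 3.78). In other hair cell nuclei none of the 5 with at least 10 UMIs had an interval apart from 0, against 4.35% of genes above and 4.89% below.

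Outside hair cells, Rims2 and Cacna1d were highest in neuron-like nuclei among the classes measured. Rims2 stood at 785 CPM in neuron-like nuclei of Serpine2 cOE and 604 CPM in those of control, against 40.1 and 28.4 CPM over all nuclei outside hair cells, and Cacna1d at 896 and 625 CPM against 209 and 222 CPM. Pvalb was at 93.7 CPM in neuron-like nuclei of Serpine2 cOE and 164 CPM in those of control. Cabp2 and Dnajc5b had 0 UMIs in neuron-like nuclei of both libraries, which allows up to 10.4 CPM in Serpine2 cOE and 30.7 CPM in control. Over all nuclei outside hair cells, Tafa3 held 18 UMIs in Serpine2 cOE and 8 in control, Dnajc5b 15 and 4, and Cabp2 46 and 16.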

How the data were processed

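Single-nucleus RNA was measured with the 10x 3′ kit v3.1 on a NovaSeq 6000, per the series design. The deposited values are UMI counts for each gene and barcode, which the authors made with Cell Ranger (release 8.0.1), per the file headers and the design. The design names GRCm39 as the build, and the submitters' processing notes mm10. The Serpine2 cOE library had 12014 barcodes with 40429121 UMIs, and the control library 9820 with 31158971. Here nuclei were kept with 500 or more genes and at most 5% mitochondrial UMIs. Scrublet (scanpy 1.11.5) found no doublets by its own threshold in either library. The nuclei with the highest scores were therefore removed, at a rate that rose by 0.8% with every 1000 barcodes of the library. This took 1040 nuclei (9.61%) in Serpine2 cOE and 703 (7.85%) in control, leaving 9777 and 8250 nuclei. Hair cell nuclei with 8 markers but under 0.6% marker UMIs were left out, 93 in Serpine2 cOE and 116 in control. Nuclei outside hair cells had fewer than 3 hair cell markers. Inner and outer markers were kept from 5 and 13 listed ones where detection correlated at 0.1 or more with Fgf8 (inner) or Slc26a5 (outer) and at -0.1 or less with the opposite one in both libraries, which left 4 of each.

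UMIs were summed by class and library and divided by the class total. Intervals are exact Poisson, Clopper-Pearson or conditional binomial ones (scipy 1.17.1) at 95%, and the floor for a count of 0 is 3 counts. They cover counting error only, and pooled cochleae are not replicates. The interval code for ratios was tested on simulated Poisson counts, the model the intervals assume, with no spread between nuclei beyond counting error. The gate, doublet removal, thinning and clusters were not simulated. Alternative factors came from TMM in edgeR 4.0.16 (R 4.3.3). Gene positions are those of GENCODE M39, in which 33185 of 33696 identifiers were found. The 8 genes and the lists of other synapse genes were chosen with earlier results of these data known. Per list, up to 4 genes with the largest absolute mean log2 ratio of inner over outer were named by rule, and after the 8 genes the first 10 by the smaller lower bound. Other genes of the lists, and Astn2, Tmc2 and Gm50467, were named after their values were seen. Some genes of the lists are counted in them but are not reported here by name.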

Additional observations from a re-analysis of the deposited data

Results flagged for a closer look

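Otof, the otoferlin gene, lay on opposite sides of 0 in the hair cell types when the libraries were compared. Serpine2 cOE over control was log2 0.35 (0.19 to 0.52) in inner nuclei and -0.28 (-0.41 to -0.14) in outer nuclei, with 1 library in each group. The difference between the hair cell types was not tested. With the diluted hair cell nuclei kept, the values were 0.05 (-0.11 to 0.21) in inner and -0.00233 (-0.12 to 0.12) in outer nuclei. Scaled to the hair cell markers, they were 0.07 (-0.09 to 0.24) and -0.39 (-0.53 to -0.26).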

How the results depend on the processing

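No paired analysis was possible because each group has 1 library. Of 192 values of inner over outer under the alternatives, 147 stayed within their counting interval. Of 166 whose interval lay apart from 0, 1 changed sign, Cacna1d in Serpine2 cOE, 0.38 with classes from Leiden clusters, and of 26 whose interval included 0, 2 did. Cacna1d in inner over other hair cell nuclei of Serpine2 cOE changed sign under 6 alternatives, to -0.0199 without doublet removal, -0.0931 with Slc17a8 and Otof added to the gate, -0.0195 with the stricter gate, -0.22 with the looser gate, -0.22 with diluted hair cell nuclei kept and -0.0917 when scaled to hair cell markers. Of 286 values of Serpine2 cOE over control, 251 stayed within their interval. Of 98 whose interval lay apart from 0, 1 changed sign, Cacna1d in inner nuclei, -0.00655 when scaled to hair cell markers, and of 188 whose interval included 0, 41 did. The cause was not tested.

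The count of the 8 genes above 0 in inner nuclei, 5, was 2 with diluted nuclei kept, 3 after thinning, 2 when scaled to hair cell markers and 3 with nuclei of both marker sets added to the inner class. The count in outer nuclei, 1, was 2 with Slc17a8 and Otof in the gate, 2 with Leiden clusters, 3 with diluted nuclei kept and 2 without the nucleus that held most UMIs. After thinning, Pvalb lost its call in outer nuclei and Cacna1d gained one (0.17, 0.04 to 0.29). Scaling to hair cell markers and adding nuclei of both sets were chosen after seeing the data. Tafa3 in inner nuclei ranged from 0.57 to 1.59, Dnajc5b from 1.75 to 3.09, Slc17a8 from 0.28 to 1.77, Otof from 0.05 to 0.49 and Rims2 from -0.20 to 0.33. With 30 UMIs or more needed, 427 genes in Serpine2 cOE and 455 in control were 2-fold higher in inner than in outer nuclei, against 873 and 1064 with 10 or more. Inner nuclei numbered 55 and 14 by Leiden clusters, and 66 of the 100 gated inner nuclei were in the inner cluster class. Depth limits Dnajc5b, with 3 UMIs in control inner nuclei, and Pvalb.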

Other observations

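Nuclei of both marker sets, 20 in Serpine2 cOE and 4 in control, held UMIs of both sets without meeting either rule and were in neither class. Their median depth was 11811 UMIs in Serpine2 cOE and 11284.5 in control, above that of inner and outer nuclei. Slc17a8 stood at 102 CPM in those of Serpine2 cOE (69.8 to 144) and 179 CPM in those of control (89.3 to 320). Rims2 stood at 1170 CPM (1053 to 1296) and 1952 CPM (1618 to 2334), and Tafa3 at 79.7 CPM (51.6 to 118) and 114 CPM (45.8 to 235). In both libraries the 3 genes lay between the outer and the inner levels. Whether these nuclei are doublets was not tested.

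Outside hair cells, Rims2 and Cabp2 were higher in Serpine2 cOE. Rims2 stood at 40.1 CPM in Serpine2 cOE and 28.4 CPM in control (log2 0.50, 0.35 to 0.65), and Cabp2 at 1.87 and 0.824 CPM (1.18, 0.33 to 2.10). Nuclei with supporting cell markers made up 15.2% of kept nuclei in Serpine2 cOE and 9.44% in control, and within them Rims2 was at 72.7 CPM (65.8 to 80.1) and 65.8 CPM (57.0 to 75.6). Neuron-like nuclei made up 0.511% and 0.315%, and their Rims2 ratio was 0.38 (-0.04 to 0.82). The part of these shares in the Rims2 and Cabp2 values was not tested. Cacna1d was lower, at 209 and 222 CPM (-0.09, -0.15 to -0.03).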
